A study of Mus musculus with 3 samples.

Results

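The 31 genes described here carry the cellular response to low oxygen and the breakdown of glucose to lactate. They were taken by symbol from the 32285 genes of the mouse gene table. Of these, 14 belong to the hypoxia response (Hif1a, Egln1, Egln3, Vegfa, Adm, Mif, Bnip3, Bnip3l, Higd1a, Ero1l, P4ha1, Ndrg1, Ddit4 and Ankrd37). The other 17 serve glucose uptake, glycolysis and lactate handling (Slc2a1, Slc2a3, Hk1, Hk2, Pfkl, Pfkp, Pfkfb3, Pfkfb4, Aldoa, Tpi1, Gapdh, Pgk1, Pgam1, Pkm, Ldha, Slc16a3 and Pdk1). Aldoa was listed under 2 gene identifiers, of which ENSMUSG00000030695 held all of its unique molecular identifiers (UMIs).

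The study surveyed immune cells of normal and aneurysmal mouse aortas by droplet single-cell RNA sequencing, with 3 libraries and 1 library per group. All groups were wild-type mice, and CD45+ cells (CD45 marks blood-derived cells) were taken from the infrarenal aorta after enzymatic digestion. The library titled Sham carries the treatment label PBS, and the library titled AAA_14 carries the treatment label elastase, the enzyme applied to damage the vessel wall. The library titled AAA_7 is named as an aneurysm sample by its title but carries the treatment label PBS, so its values are given as those of the library titled AAA_7. The unit of the numbers 7 and 14 is not given in the labels. Age, sex and strain are not given either. Aortas were pooled, 50 for control and 20 for aneurysm preparations, and how they were divided over the libraries is not given, so no spread between animals can be measured.

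Cells sense oxygen through prolyl hydroxylases, which mark the alpha subunit of the hypoxia-inducible factor (HIF) for degradation while oxygen is present. When oxygen falls, or when inflammatory signals raise its synthesis, the subunit pairs with its partner ARNT on DNA and raises transcription of glucose transporters, glycolytic enzymes, vascular growth factors and mitophagy receptors, and also of the hydroxylases that restrain it. Neutrophils are known to live mainly on glycolysis, and macrophages shift towards it on inflammatory activation, while resting lymphocytes rely more on mitochondrial respiration.

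Because the HIF dimer is known to bind the core letters ACGTG and GCGTG, both were searched on both strands in the 250 bases before each RefSeq transcription start (GRCm38.p6). CACGTG holds ACGTG on both strands. Of the 31 genes, 28 were in the promoter table, and Bnip3l, Ndrg1 and Slc2a3 were not. At least 1 core was found before 26 of the 28 (92.9%), against 41.5% of all 27025 genes in the table. Counted per promoter, the share was 80.6% of 36 against 38.6% of 32851. The median GC content of the same stretches was 63.4% for the members and 52.4% for all promoters, and its part in these shares was not tested. The 6 stretches of 30 bases shown next belong to genes that were higher in both myeloid classes than in lymphocytes under both scalings used below, and each holds the core nearest the outermost start, with cores in capitals.
Bnip3, chr7:138909525-138909554, minus strand: gggctccgccgccGCGTGcgtcccgccccg
Hk2, chr6:82774490-82774519, minus strand: caatgagcacatcCACGTcactgtccgggg
Pfkfb3, chr2:11553973-11554002, minus strand: cctccgcgccgtgACGTGccaagctgtgac
Pfkfb4, chr9:108991772-108991801, plus strand: tttgacggatgggGCGTGcttagtccaaaa
Pgam1, chr19:41911770-41911799, plus strand: gactgccgggtagCACGCgggtaccgctac
Slc16a3, chr11:120949037-120949066, plus strand: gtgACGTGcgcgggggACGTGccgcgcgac
Slc16a3 held 2 cores within 30 bases, and no core lay before the outermost of the Vegfa starts. In Hk2 and Pgam1 the core is read on the opposite strand. Of the bases shown, 30 in Pfkfb3, 24 in Pfkfb4 and 14 in Slc16a3 overlap non-coding exon parts of the GENCODE annotation, and 0 do in Bnip3, Hk2 and Pgam1. A match is a description of these letters and not a measured binding site.

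Sequencing gave 13677839 UMIs for Sham, 13341534 for AAA_7 and 67243700 for AAA_14. After removing barcodes with fewer than 200 genes or more than 10% mitochondrial UMIs, and likely doublets, 9431 of 17389 barcodes were kept (1223, 3146 and 5062). The mitochondrial limit removed 65.4% of Sham, 6.98% of AAA_7 and 46.9% of AAA_14 barcodes, so AAA_7 stood apart from the other libraries. Pairs of libraries shared 5 to 12 barcodes before filtering and 1 to 8 after it. Cell classes were assigned from marker genes on clusters built without the 31 genes. They held 112, 692 and 800 neutrophils in Sham, AAA_7 and AAA_14. Phagocytes (macrophages and monocytes) numbered 11, 991 and 1124, and the Sham phagocytes were too few to use. T cells numbered 458, 560 and 925, B cells 421, 455 and 1257, and natural killer (NK) cells 86, 169 and 105. The 13 neutrophil markers summed to 378280, 120924 and 297257 CPM (a gene's UMIs as parts of all UMIs of the cells summed, on a fixed common scale) in neutrophils and to 171, 351 and 481 in lymphocytes. S100a8, known with S100a9 as the most abundant neutrophil message, stood at 55.0, 131 and 169 CPM in lymphocytes, against 148051, 55779 and 122047 CPM in neutrophils. S100a9 stood at 74.4, 153 and 203 CPM against 163053, 49525 and 119934 CPM. These values give the scale of free neutrophil RNA only. The macrophage marker C1qa stood at 3155 and 3826 CPM in AAA_7 and AAA_14 phagocytes. It stood at 75.4 and 21.4 CPM in lymphocytes and at 140 and 28.3 CPM in neutrophils of these libraries. The part of free phagocyte RNA in the values of the 31 genes was not tested.

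The first comparison asked how far the genes differ between neutrophils, phagocytes and lymphocytes (T, B and NK cells summed). Of the 17 genes of glucose use, 13 were higher and 1 lower in neutrophils than in lymphocytes under TMM scaling (trimmed mean of log ratios). Under scaling by total UMIs 9 were higher and 2 lower. Of the 14 hypoxia genes, 8 were higher and 1 lower under TMM, and 5 higher and 5 lower under totals. Among all genes 25.8% were higher and 27.9% lower under TMM, and 14.4% and 56.2% under totals. The lactate exporter Slc16a3, Vegfa, Pfkfb4 and the glucose transporter Slc2a3 had the highest ratios. UMIs were summed per class and library, and edgeR's quasi-likelihood test with the library as a block and Benjamini-Hochberg adjustment over 11648 genes gave each log2 ratio, with TMM scaling unless stated. The 3 libraries stand in for repeats of the class difference although they belong to different groups, with phagocytes in AAA_7 and AAA_14 only. The p-values rest on a spread estimated from the 3 classes together and drawn towards that of all genes. They therefore do not measure the spread of a single gene's class difference alone. Each CPM is 1 sum over the cells of a class in a library, so the error given for a class difference is the SE of its log2 ratio. This SE was derived from the same test and rests on the same shared spread. It is not a gene's own observed spread between libraries. The fit left 3 residual degrees of freedom. Of the 31 genes, 21 were higher and 2 lower in neutrophils than in lymphocytes at an adjusted p under 0.05, where 25.8% of all genes were higher and 27.9% lower. Scaling by total UMIs moved log2 ratios down, with a shift (TMM minus totals) of 0.96 at the median gene. Under it 14 members were higher and 7 lower, against 14.4% and 56.2% of all genes. The members' median log2 ratio was 1.38 under TMM, where the median of all genes was -0.18, and 0.45 under totals, where that of all genes was -1.14.

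**Figure D1:**
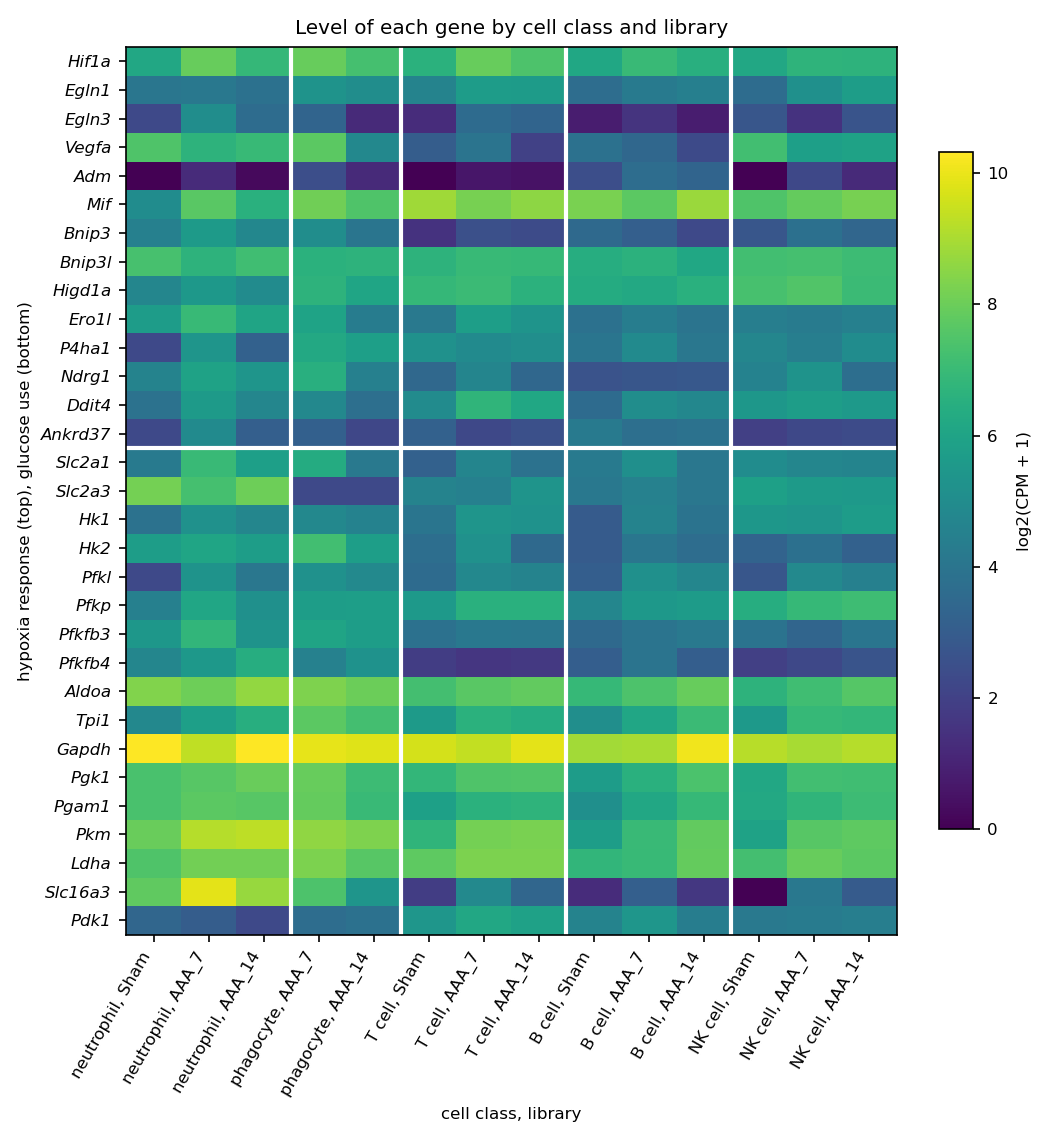
Heatmap of log2(CPM + 1) for each of the 31 genes (rows, hypoxia response above and glucose use below the white line) by cell class and library (columns, 1 sum of cells each). Slc16a3 is bright in neutrophils, at 220.3, 939 and 428 CPM in Sham, AAA_7 and AAA_14, and darker in T cells, at 2.63, 27.9 and 9.55 CPM.

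At the head of the pathway, Hif1a, the oxygen-regulated subunit, stood at 72.1, 239.6 and 115 CPM in neutrophils of Sham, AAA_7 and AAA_14 and at 85.4, 187 and 125 CPM in lymphocytes. The class values overlapped, and the library titled AAA_7 was highest in both classes. Its log2 ratio was 0.92 (SE 0.28, adjusted p = 0.0116) under TMM in edgeR's quasi-likelihood test but 0.02 (adjusted p = 0.955) under totals. The call was also lost without the library titled AAA_7 (0.66, adjusted p = 0.114) and without AAA_14 (0.88, adjusted p = 0.236). Egln1, a prolyl hydroxylase, stood at 15.6, 16.5 and 13.5 CPM against 19.1, 39.0 and 33.9 CPM and had a log2 ratio of -0.13 (SE 0.28), which did not pass under TMM but did under totals (-1.09, adjusted p = 0.0051). Egln3, the hydroxylase that is itself a HIF target, was higher in neutrophils in each library, at 3.90, 32.3 and 11.4 CPM against 1.61, 6.93 and 4.35 CPM, with a log2 ratio of 2.66 (SE 0.41, adjusted p = 6.83e-05). The 2 hydroxylases thus differed in their class pattern, although the Sham value of Egln3 rested on 2 UMIs.

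Among secreted factors, Vegfa, the main vascular endothelial growth factor, was one of the members furthest apart between classes. It stood at 179, 100.5 and 122 CPM in neutrophils and at 20.3, 19.6 and 6.02 CPM in lymphocytes. No neutrophil value came near a value of the summed lymphocytes, but Sham NK cells taken alone lay above AAA_7 and AAA_14 neutrophils. Among lymphocytes NK cells held the highest levels, at 146, 55.6 and 60.0 CPM, against 7.14, 14.7 and 3.04 CPM in T cells and 13.5, 9.78 and 3.94 CPM in B cells. The log2 ratio was 4.34 (SE 0.50, adjusted p = 3.19e-06), and 3.55 without AAA_14. Vegfa lies on chromosome 17, 46016993 to 46032369, minus strand of GRCm38. Mif, a cytokine kept preformed in many immune cells, had its lower values in neutrophils, at 31.2, 202 and 92.7 CPM against 384, 259.6 and 406 CPM, and its log2 ratio of -1.01 (SE 0.47) did not pass under TMM (adjusted p = 0.0824) and did under totals (-1.92, adjusted p = 0.00213). Adm, which encodes the vasodilator peptide adrenomedullin, had 0, 2 and 1 UMIs in neutrophils. In edgeR's test it did not pass under TMM (-2.20, adjusted p = 0.0518) and was lower under totals (-3.20, adjusted p = 0.00522). For Sham, the count of 0 has an upper 95% limit of 7.19 CPM, so Adm was at the edge of detection there.

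The mitophagy receptor Bnip3 stood at 21.4, 48.8 and 26.6 CPM in neutrophils and 4.84, 6.93 and 4.23 CPM in lymphocytes, with every neutrophil value above every lymphocyte value. Its log2 ratio was 3.52 (SE 0.32, adjusted p = 1.89e-07). Its relative Bnip3l was closer between classes, with a log2 ratio of 1.24 (SE 0.26) under TMM and 0.35 under totals, and its call was lost without AAA_14 (1.02, adjusted p = 0.142). Higd1a, a small protein of the mitochondrial inner membrane, was 1 of the 2 members lower in neutrophils, at 25.3, 44.5 and 30.3 CPM against 108, 121 and 95.9 CPM. Its log2 ratio was -0.77 (SE 0.28, adjusted p = 0.0281), and the call was lost without Sham (-0.58, adjusted p = 0.0954) and without AAA_14 (-0.91, adjusted p = 0.213). Ero1l, the oxidase that helps form disulfide bonds in the endoplasmic reticulum, stood at 50.7, 123 and 64.4 CPM against 16.1, 38.1 and 25.4 CPM. The gap was seen in each library, with a log2 ratio of 2.45 (SE 0.29, adjusted p = 3.79e-06). The stress-responsive gene Ndrg1, at 23.4, 60.3 and 40.8 CPM against 9.67, 21.7 and 8.05 CPM, had a log2 ratio of 2.75 (SE 0.35, adjusted p = 9.98e-06). Ankrd37 had a log2 ratio of 1.38 (SE 0.48), which fell to 0.45 without the library titled AAA_7 and no longer passed. In edgeR's test under totals it was not called (0.43, adjusted p = 0.449). Its CPM was higher in neutrophils in 1 of the 3 libraries. Ddit4, an inhibitor of the growth kinase mTORC1, and P4ha1, a subunit of the collagen prolyl hydroxylase, changed sign with the scaling (Ddit4 0.18 and -0.78, P4ha1 0.16 and -0.80). In edgeR's test under totals Ddit4 was called lower (adjusted p = 0.0145) and P4ha1 was not called (adjusted p = 0.128).

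**Figure D2:**
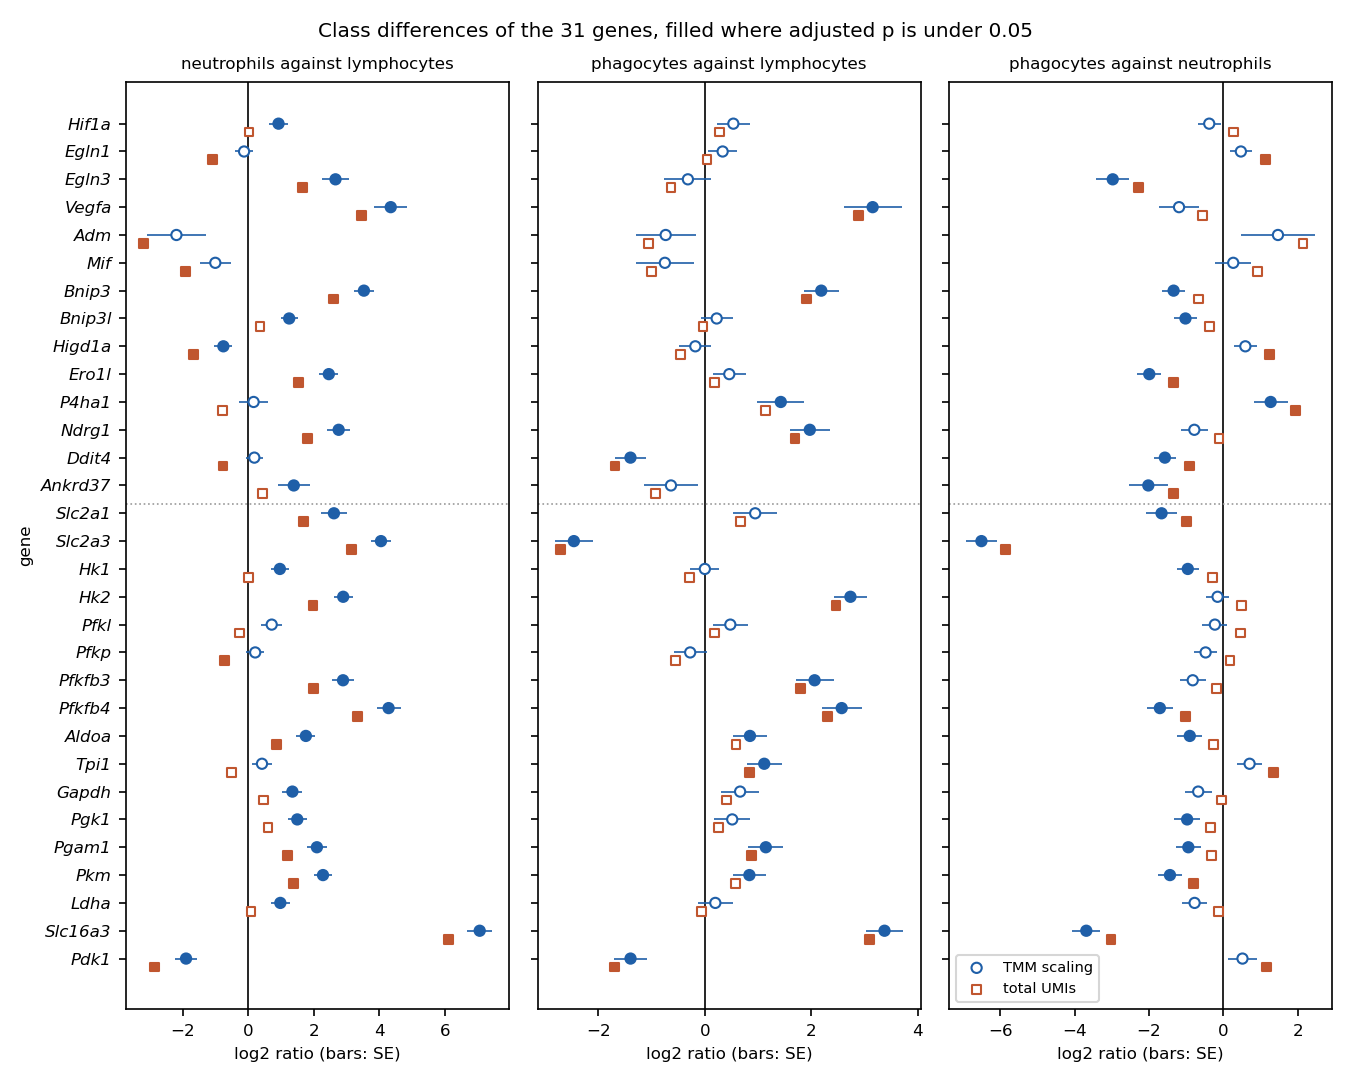
Log2 ratio of each of the 31 genes for the 3 pairs of classes, from edgeR's quasi-likelihood fit with TMM scaling (circles, bars of 1 SE) and with total UMIs (squares), filled where the adjusted p is under 0.05. Slc16a3 reached 7.06 in neutrophils against lymphocytes under TMM and 6.12 under totals.

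Glucose enters cells through facilitative transporters, and 2 of them were members. Slc2a3, the high-affinity transporter of neurons and leukocytes, stood at 287, 156 and 263 CPM in neutrophils and 24.2, 26.0 and 27.0 CPM in lymphocytes, and at only 3.83 and 3.79 CPM in AAA_7 and AAA_14 phagocytes. The 3 classes did not overlap. The log2 ratio was 4.05 (SE 0.29, adjusted p = 1.42e-08) in neutrophils and -2.46 (SE 0.35, adjusted p = 3.41e-05) in phagocytes, each against lymphocytes, so Slc2a3 was high in the first and low in the second. Slc2a1, the widely expressed transporter, stood at 17.5, 128 and 56.0 CPM in neutrophils, 13.1, 27.7 and 15.4 CPM in lymphocytes and 79.5 and 17.0 CPM in phagocytes. It was higher in neutrophils than in lymphocytes, by 2.61 (SE 0.39, adjusted p = 4.83e-05), while the phagocyte ratio of 0.95 (SE 0.42) did not pass.

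At the hexokinase step, which traps glucose in the cell, Hk2 was higher in both myeloid classes. It stood at 52.6, 66.7 and 52.1 CPM in neutrophils, 146 and 54.5 CPM in phagocytes and 10.4, 26.3 and 11.1 CPM in lymphocytes, with log2 ratios to lymphocytes of 2.89 (SE 0.29, adjusted p = 7.97e-07) and 2.74 (SE 0.31, adjusted p = 2.96e-06). Hk1, the housekeeping form, stood at 13.6, 36.6 and 26.0 CPM in neutrophils against 14.7, 35.8 and 25.5 CPM, values that overlapped. Its ratio was 0.96 (SE 0.27) under TMM and 0.00 under totals, and its TMM call was lost without AAA_14 (0.83, adjusted p = 0.278).

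Phosphofructokinase commits sugar to glycolysis, and the Pfkfb enzymes make and remove the sugar bisphosphate that activates it. Pfkfb4 stood at 25.3, 44.5 and 85.4 CPM in neutrophils, 22.4 and 37.3 CPM in phagocytes and 4.14, 6.06 and 5.25 CPM in lymphocytes, with AAA_14 highest in both myeloid classes. Its log2 ratio to lymphocytes was 4.28 (SE 0.37, adjusted p = 1.04e-07) in neutrophils and 2.57 (SE 0.38, adjusted p = 3.79e-05) in phagocytes, and the former was 3.58 without AAA_14. Pfkfb3 stood at 42.9, 111 and 38.6 CPM, 65.1 and 52.7 CPM and 12.7, 14.7 and 16.5 CPM in the same order of classes, here with AAA_7 highest among neutrophils. Its ratios were 2.89 (SE 0.34, adjusted p = 3.72e-06) and 2.06 (SE 0.36, adjusted p = 0.000194), and the neutrophil ratio was 2.30 without AAA_7. The catalytic subunits did not follow them: Pfkl had a log2 ratio of 0.71 (SE 0.33) and Pfkp of 0.20 (SE 0.28) in neutrophils, neither passed under TMM, and both were negative under totals (-0.27 and -0.73). In edgeR's test under totals Pfkp was called lower (adjusted p = 0.0283) and Pfkl was not called (adjusted p = 0.456).

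The enzymes of the lower pathway were more even. In neutrophils against lymphocytes Pkm (pyruvate kinase), Pgam1 (phosphoglycerate mutase) and Aldoa (aldolase) were higher under both scalings, with TMM log2 ratios of 2.27 (SE 0.28), 2.09 (SE 0.29) and 1.75 (SE 0.29). The calls of Pkm and Aldoa held under each alternative setting tried, and that of Pgam1 did not. Pkm stood at 251, 578 and 625 CPM against 86.6, 224 and 261 CPM, and the Sham neutrophils lay below the AAA_14 lymphocytes. Pgk1 (phosphoglycerate kinase), Gapdh (glyceraldehyde phosphate dehydrogenase) and Ldha (lactate dehydrogenase) passed under TMM with ratios of 1.49 (SE 0.29), 1.34 (SE 0.30) and 0.97 (SE 0.28), but not under totals (0.59, 0.45 and 0.08). The TMM call of Gapdh was lost without AAA_14 (1.30, adjusted p = 0.0676), and that of Ldha without AAA_7 (0.84, adjusted p = 0.0631) or without AAA_14 (0.90, adjusted p = 0.223). Tpi1 (triose phosphate isomerase) showed no class call, at 27.3, 56.0 and 88.2 CPM against 43.3, 90.1 and 110.1 CPM. Gapdh and other glycolytic genes have processed pseudogenes, and how reads shared with them were counted is not given in the sources used here.

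Slc16a3, which carries lactate out of cells with high glycolytic flux, had the largest neutrophil ratio of the 31 genes. It stood at 220.3, 939 and 428 CPM in neutrophils, 172 and 40.6 CPM in AAA_7 and AAA_14 phagocytes and 2.07, 20.2 and 5.43 CPM in lymphocytes. Neutrophils lay above lymphocytes without overlap, and AAA_7 was highest in all 3 classes. The log2 ratio to lymphocytes was 7.06 (SE 0.37, adjusted p = 6.12e-10) in neutrophils and 3.38 (SE 0.35, adjusted p = 1.03e-06) in phagocytes. With each cell thinned to 1000 UMIs, 19.8, 52.3 and 36.9% of neutrophils in Sham, AAA_7 and AAA_14 had a Slc16a3 UMI, against 0, 0.463 and 0.324% of B cells. Slc16a3 lies on chromosome 11, 120948480 to 120960868, plus strand of GRCm38. Pdk1, the kinase that inhibits pyruvate dehydrogenase, went the other way, at 9.75, 7.18 and 3.86 CPM in neutrophils against 34.3, 54.6 and 36.1 CPM in lymphocytes. Its values did not overlap, and its log2 ratio was -1.91 (SE 0.35, adjusted p = 0.000284). The call was lost with a mitochondrial limit of 5% (-1.08, adjusted p = 0.126), where Sham lymphocytes were left out.

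Phagocytes were less far from lymphocytes. Of the 31 genes, 12 were higher and 3 lower, against 24.6% and 17.7% of all genes, and under totals 9 were higher and 3 lower, against 19.5% and 26.2%. The members' median was 0.52 under TMM and 0.25 under totals, beside 0.03 and -0.26 for all genes, a shift of 0.30 between scalings. Bnip3, Hk2, Ndrg1, Pfkfb3, Pfkfb4, Slc16a3 and Vegfa were higher, and Slc2a3 lower, under each of the alternative settings tried. Vegfa stood at 209 and 26.9 CPM in AAA_7 and AAA_14 phagocytes, so its ratio of 3.15 (SE 0.55, adjusted p = 0.000198) depended on the library, with 1.99 without AAA_7 and 3.85 without AAA_14. Ndrg1 likewise stood at 90.2 and 21.3 CPM, with a ratio of 1.97 (SE 0.37, adjusted p = 0.000427), and Bnip3 at 31.9 and 14.9 CPM, with a ratio of 2.19 (SE 0.33, adjusted p = 4.65e-05). P4ha1 and Tpi1 were higher in phagocytes than in lymphocytes, at 1.43 (SE 0.45) and 1.12 (SE 0.33), although neither was called in neutrophils. Without AAA_14 8 of the 15 calls were made, and Aldoa, Ddit4, P4ha1, Pdk1, Pgam1, Pkm and Tpi1 no longer passed (adjusted p from 0.0610 for Pgam1 to 0.381 for P4ha1).

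Set against neutrophils, phagocytes had 15 members lower and 1 higher (P4ha1), where 20.4% of all genes were lower and 25.1% higher. Under totals 9 were lower and 5 higher, against 10.9% and 44.3%, with a shift (TMM minus totals) of -0.66 at the median gene. The lower calls of Slc2a3 (-6.50, SE 0.41, adjusted p = 3.29e-08), Slc16a3 (-3.68, SE 0.38, adjusted p = 2.16e-06) and Egln3 (-2.97, SE 0.44, adjusted p = 7.32e-05) held under each alternative. These 3 genes were the only calls made without AAA_14, which leaves phagocytes of a single library. The Egln3 ratio was -3.80 without AAA_7 and -2.33 without AAA_14. Hk2, Vegfa, Ndrg1 and Pfkfb3, which were higher than in lymphocytes in both classes, had ratios between neutrophils and phagocytes of -0.16 (SE 0.31), -1.19 (SE 0.55), -0.78 (SE 0.36) and -0.82 (SE 0.35), none of which passed.

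Related genes outside the 31 were read in the same fit. The shares to set beside these neutrophil counts are 25.8% of all genes higher and 27.9% lower under TMM, and 14.4% and 56.2% under totals. Among 16 tested genes of glycolysis and lactate transport, 4 were higher and 4 lower in neutrophils than in lymphocytes (3 and 7 under totals), near those shares under TMM. They were led by the myeloid hexokinase Hk3 at 7.03, the transporter Slc2a6 at 5.44 and the muscle phosphofructokinase Pfkm at -6.73. Pfkm had no UMI in neutrophils of any library, so its fitted ratio depends on the prior count. The pentose phosphate pathway feeds NADPH to the neutrophil oxidase. Of 7 genes of this pathway, 4 were higher (G6pdx, Pgd, Taldo1 and Tkt) and 0 lower. Under totals 4 were higher and 2 lower. Of 19 genes of the tricarboxylic acid cycle and pyruvate dehydrogenase, 1 was higher and 7 lower, and 0 and 15 under totals. Of 18 further hypoxia response genes, 10 were higher and 1 lower in neutrophils (6 and 3 under totals), and 10 were higher and 1 lower in phagocytes (10 and 2 under totals), where 24.6% and 17.7% of all genes were higher and lower under TMM and 19.5% and 26.2% under totals. In phagocytes these included the arginine-degrading enzyme Arg1 at 7.08 and the heme-degrading enzyme Hmox1 at 5.78. Of 10 further components of the HIF pathway, 3 were higher and 2 lower in neutrophils, and 0 and 5 under totals. Of 18 dissociation and stress genes, 13 were higher and 4 lower in neutrophils (12 and 4 under totals) and 10 higher and 1 lower in phagocytes (9 and 1 under totals). Their sum ran from 14014 to 22436 CPM in neutrophils and from 8349 to 14595 CPM in lymphocytes, and their part in the class differences of the 31 genes was not tested.

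Within the myeloid classes the genes were unevenly spread over clusters. Macrophage cluster 5, led by Mmp12, Gpnmb, Arg1 and Spp1, carried more of the 31 genes than macrophage cluster 4, led by Ccl8, Fcrls and Mrc1. In the AAA_7 library, Vegfa stood at 381 (358 to 405) CPM in cluster 5 and 15.6 (10.2 to 22.8) CPM in cluster 4, with 95% intervals of counting error. Slc16a3 stood at 313 and 22.7 CPM, Ndrg1 at 157 and 16.8 CPM, and Slc2a1 at 142 and 16.8 CPM. Summed over the 14 hypoxia genes, cluster 5 held 1842 CPM in AAA_7 and 1188 CPM in AAA_14, against 637 and 521 CPM in cluster 4. The 17 glycolytic genes summed to 4545 and 4487 CPM in cluster 5 and 1895 and 1519 CPM in cluster 4, so cluster 5 was the higher of the 2 in both libraries and for both groups of genes. Clusters were formed without the 31 genes, and no test was made between clusters, whose cells share libraries.

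**Figure D3:**
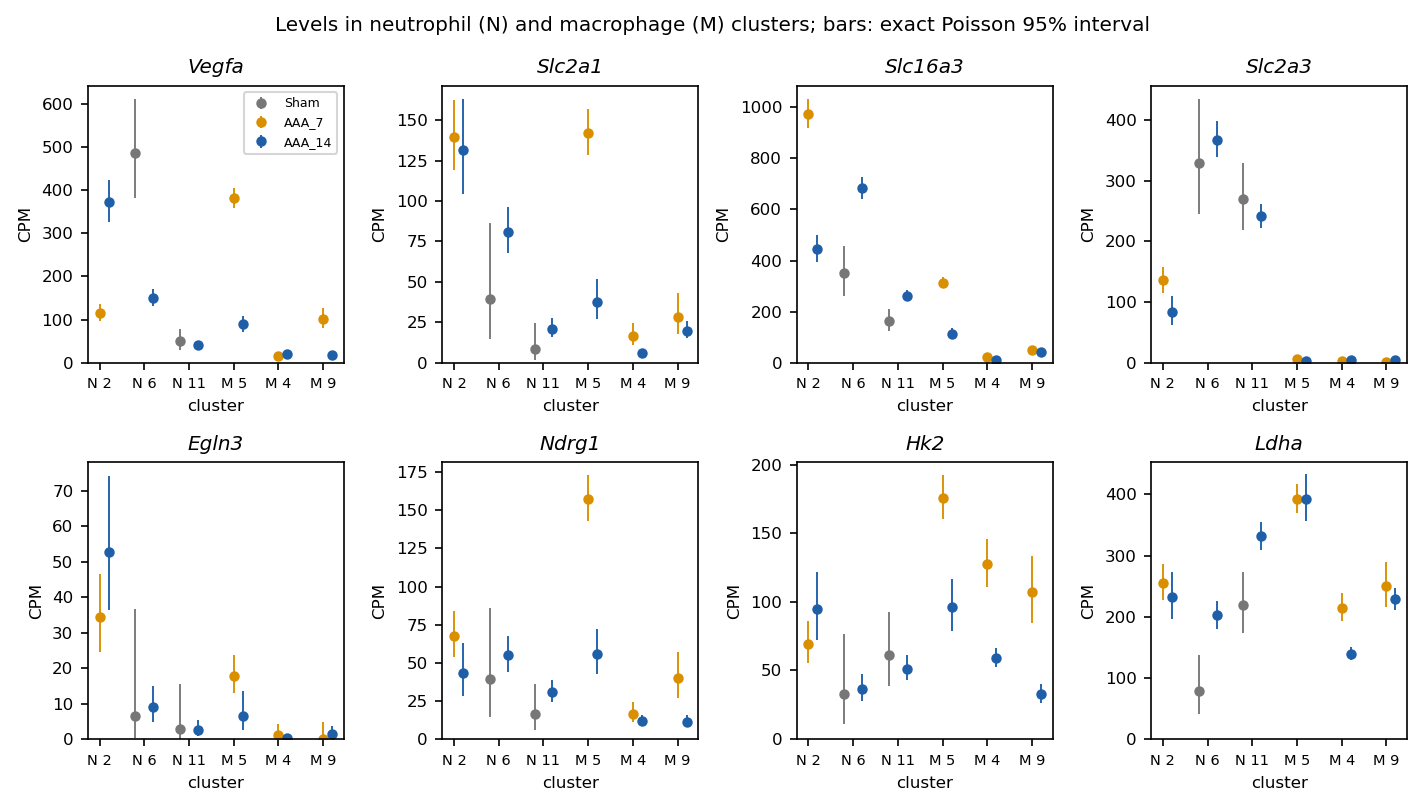
CPM of 8 of the genes in neutrophil clusters 2, 6 and 11 (N) and macrophage clusters 5, 4 and 9 (M), 1 point per library with at least 50 cells there, with exact Poisson 95% intervals. Vegfa in AAA_7 stood at 381 CPM in macrophage cluster 5 and at 15.6 CPM in cluster 4.

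Neutrophils fell mainly into 3 clusters. Cluster 2, led by Acod1, Csf1 and Slc7a11, held 650 of the 692 AAA_7 neutrophils, 168 of the 800 in AAA_14 and 1 in Sham. Cluster 6, led by Csf3r and Cxcr2, held 54 Sham and 412 AAA_14 cells, and cluster 11, led by the granule genes Camp and Ltf, held 57 and 220. The library and the neutrophil cluster therefore cannot be told apart when AAA_7 is set against Sham. In AAA_14, where all 3 clusters were filled, the hypoxia genes summed to 1295 CPM in cluster 2, 865 in cluster 6 and 442 in cluster 11. Slc16a3 stood at 446, 683 and 263 CPM and Vegfa at 373, 149 and 41.7 CPM in the same order. Both genes were lowest in the granule-gene cluster. In Sham, Vegfa stood at 488 (383 to 612) CPM in cluster 6 and 50.1 (29.7 to 79.1) CPM in cluster 11, so its cluster 6 value was above that of AAA_14 beyond counting error. The glycolytic genes ran from 3401 CPM in cluster 2 to 4233 in cluster 6 and 4227 in cluster 11.

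The second comparison set AAA_14 against Sham within each class, to ask how the genes stood in the elastase library. With 1 library per group there is no test, and the intervals given for log2 ratios of CPM are exact 95% intervals that cover counting error only. A member counts as measured where the pair of libraries held 10 or more of its UMIs. In T cells, 10 of the 30 measured genes reached 2-fold or more in AAA_14 over Sham and 1 lay as far below, against 25.2% and 3.31% of all genes. The members' median was 0.71, beside 0.47 for all genes, so the share was not far from that of other genes. Slc16a3 stood at 2.63 and 9.55 CPM in Sham and AAA_14 T cells, a log2 ratio of 1.77 (0.74 to 3.23). Pkm stood at 107 and 306 CPM, with a ratio of 1.51 (1.34 to 1.70), and Hif1a at 94.7 and 173 CPM, with 0.87 (0.67 to 1.07). Egln3 had the highest ratio, 2.42 (1.15 to 4.50), from 4 and 62 UMIs. Vegfa was lower, at 7.14 and 3.04 CPM, with a ratio of -1.23 (-2.20 to -0.26). Within T cell cluster 1, led by Dapl1, Lef1 and Cd8b1, the members' median was 0.26, beside 0.31 for all genes.

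**Figure D4:**
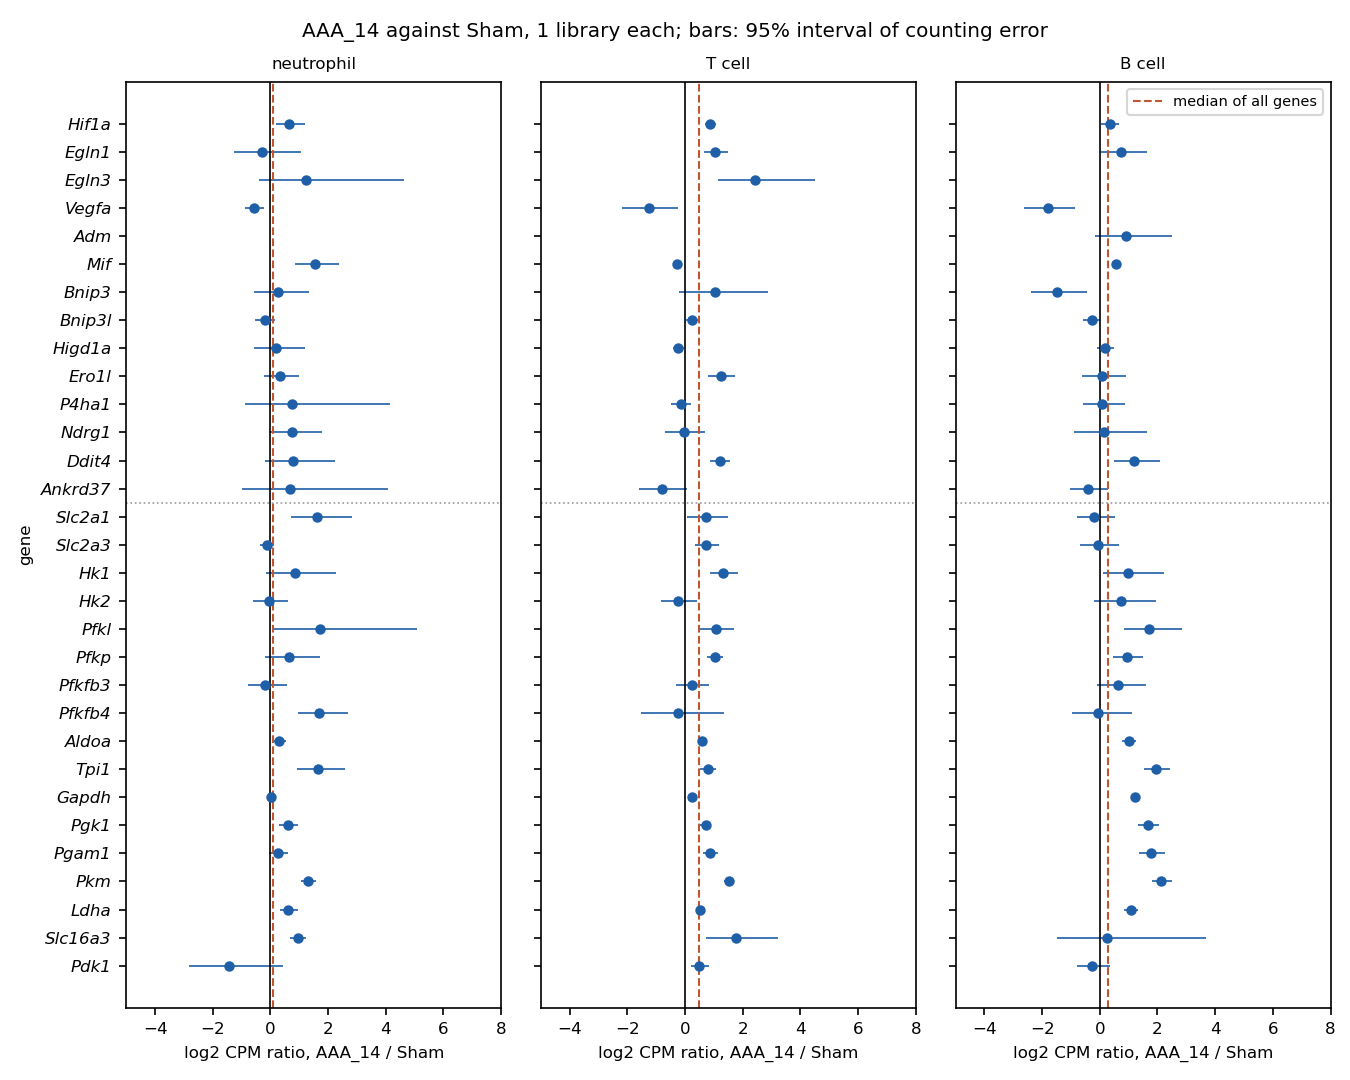
Log2 ratio of CPM, AAA_14 over Sham, for each measured gene in neutrophils, T cells and B cells, with 95% intervals of counting error and the median of all genes as a dashed line. In B cells Pkm reached 2.13 and Vegfa -1.80.

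In B cells 8 of the 17 genes of glucose use stood 2-fold or more higher in AAA_14 than in Sham and 0 as far below, with ratios from -0.26 to 2.13, while Vegfa and Bnip3 had lower values. Among the 30 genes measured, 9 reached 2-fold or more and 2 lay as far below, against 20.9% and 6.62% of all genes, with medians of 0.60 and 0.28. Pkm stood at 52.5 and 231 CPM in Sham and AAA_14, a log2 ratio of 2.13 (1.80 to 2.50). Tpi1, Pgam1, Pgk1, Gapdh and Ldha had ratios of 1.96 (1.54 to 2.44), 1.79 (1.37 to 2.27), 1.67 (1.33 to 2.05), 1.22 (1.10 to 1.34) and 1.08 (0.84 to 1.33). In Sham a single cell held 33.3% of the B cell UMIs of Ldha and of Pgam1, and 30.2% of those of Mif. B cell cluster 14, led by Rgs13 and Mef2b, held 198 cells in AAA_14 but 6 in Sham and 10 in AAA_7, and its glycolytic sum was 3978 CPM. B cell clusters 0 and 3 held 1274 and 1160.2 CPM in AAA_14 and 839.8 and 872 CPM in Sham. Within clusters 0 and 3 the glycolytic genes' median log2 ratio was 0.85 and 0.56, beside 0.07 and 0.19 for all genes, and Tpi1 was -0.21 in cluster 0 and 0.68 in cluster 3. Vegfa stood at 13.5 and 3.94 CPM, a ratio of -1.80 (-2.63 to -0.87). Bnip3 had a ratio of -1.48 (-2.39 to -0.45), which was 0.36 with cells thinned to 1000 UMIs.

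In neutrophils, 7 of the 30 measured genes reached 2-fold or more in AAA_14 and 1 lay as far below, against 17.3% and 7.94% of all genes, with medians of 0.63 and 0.09. The median mitochondrial share of the kept neutrophils was 1.22% in Sham and 5.07% in AAA_14, and its part in these ratios was not tested. Slc2a1 stood at 17.5 and 56.0 CPM in Sham and AAA_14, with a log2 ratio of 1.60 (0.73 to 2.82). Pkm, at 251 and 625 CPM, had a ratio of 1.31 (1.06 to 1.58), and Pfkfb4 one of 1.70 (0.96 to 2.67). The other 4 higher members were Pfkl (1.71, interval 0.12 to 5.10), Tpi1 (1.64, interval 0.93 to 2.58), Mif (1.53, interval 0.86 to 2.39) and Egln3 (1.24, interval -0.38 to 4.63). Sham neutrophils held 2 UMIs of Pfkl and 2 of Egln3, so these 2 ratios are loosely bound, and that of Egln3 was -0.13 with 5 counts added and -0.10 within cluster 6. The members' median was 0.24 with cells thinned to 1000 UMIs and 0.19 with 5 counts added. Slc16a3 had a ratio of 0.95 (0.69 to 1.25), while Slc2a3, Hk2 and Gapdh were close to even at -0.13, -0.04 and 0.03. Split by cluster, the glycolytic genes' median was 0.74 within cluster 6 and 0.66 within cluster 11, whereas that of the hypoxia genes was 0.00 and -0.02. In NK cells, 4 of the 24 measured genes reached 2-fold or more and 1 lay as far below, against 20.4% and 3.67% of all genes, with a median of 0.22 beside 0.30, and of -0.03 under TMM scaling. Pkm was again among the higher genes there (1.80, interval 1.17 to 2.56), and Vegfa was the lower one (-1.28, interval -1.90 to -0.68).

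The library titled AAA_7 was set against the same Sham library, so the next values share their denominator with those just given. In neutrophils, 16 of the 30 measured genes reached 2-fold or more and 0 lay as far below, against 23.5% and 14.6% of all genes, with medians of 1.17 and 0.14. Slc16a3 stood at 220.3 and 939 CPM in Sham and AAA_7, a log2 ratio of 2.09 (1.81 to 2.38). Slc2a1 had a ratio of 2.79 (1.91 to 4.02), Mif of 2.66 (1.97 to 3.52) and Hif1a of 1.72 (1.24 to 2.26). Vegfa and Slc2a3 had lower values in AAA_7, with ratios of -0.84 (-1.23 to -0.44) and -0.88 (-1.19 to -0.57). In AAA_7 neutrophils the 13 macrophage markers summed to 1152 CPM, against 93.6 CPM in Sham neutrophils, where C1qa, C1qb, C1qc and 5 more were at 0, and 22987 CPM in AAA_7 phagocytes. Their part in these ratios was not tested. In T cells, 15 of 30 reached 2-fold or more and 1 lay as far below, against 26.0% and 4.04% of all genes, while 10 of 18 dissociation and stress genes were also at least 2-fold higher, with a median of 1.09. Within T cell cluster 1 the members' median was 0.37, beside 0.36 for all genes. In B cells 9 members were higher and 0 lower, against 16.0% and 6.09%, and in NK cells 5 were higher and 1 lower, against 19.8% and 5.91%. Median mitochondrial shares of the kept T cells were 8.53% in Sham, 1.65% in AAA_7 and 7.62% in AAA_14.

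The third comparison set AAA_14 against the library titled AAA_7, the only pair with phagocytes in number. In phagocytes, 0 of 31 genes reached 2-fold or more in AAA_14 and 11 lay as far below, against 7.80% and 3.83% of all genes, with medians of -0.62 and 0.10. Between the same phagocytes of AAA_7 and AAA_14 the 5 erythroid markers summed to 4.56 and 971.5 CPM (Alas2 was at 0 in AAA_7), the median mitochondrial share was 1.06% and 5.18%, and monocytes numbered 20 and 234. With a mitochondrial limit of 5% the members' median was -0.55, and the part of the erythroid markers and monocytes was not tested. Vegfa stood at 209 and 26.9 CPM in AAA_7 and AAA_14, a log2 ratio of -2.95 (-3.14 to -2.77). Slc16a3 stood at 172 and 40.6 CPM (-2.08, interval -2.24 to -1.92), Slc2a1 at 79.5 and 17.0 CPM (-2.22, interval -2.47 to -1.98) and Ndrg1 at 90.2 and 21.3 CPM (-2.08, interval -2.30 to -1.86). Egln3, Adm, Ero1l, Hk2, Ankrd37, Ddit4 and Bnip3 were the other 7 lower members, from -2.76 for Egln3 to -1.10 for Bnip3. Pfkfb4 (0.73, interval 0.44 to 1.03) was the highest ratio. Cluster 5 held 547 of 991 phagocytes in AAA_7 but 84 of 1124 in AAA_14, and cluster 4 held 266 and 496. Within cluster 5 the Vegfa ratio was -2.10, within cluster 4 0.32 and within cluster 9, led by Slamf9, Ch25h and Cx3cr1, -2.60. For Slc16a3 the ratios were -1.46, -0.99 and -0.21, and for Slc2a1 -1.89, -1.57 and -0.52. The members' median was -0.48, -0.44 and -0.01 in clusters 5, 4 and 9, beside 0.07, -0.05 and 0.09 for all genes.

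**Figure D5:**
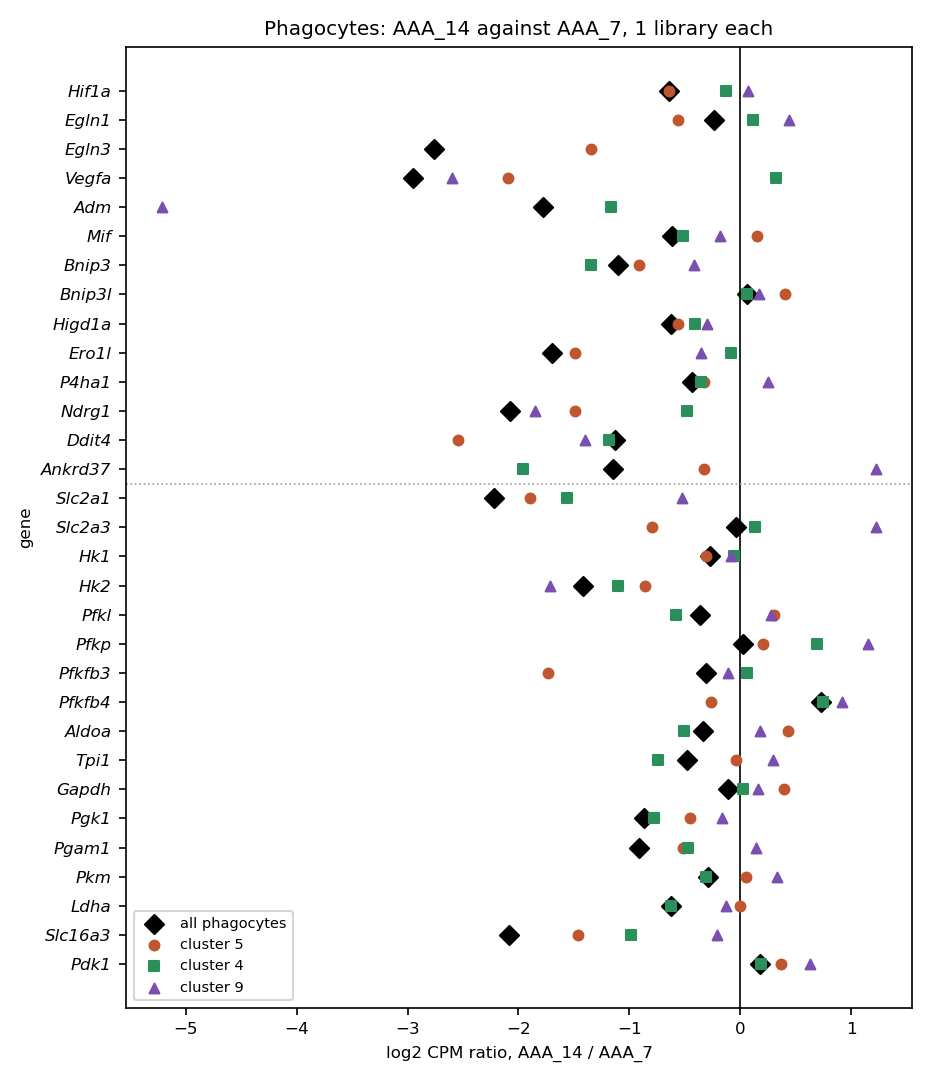
Log2 ratio of CPM, AAA_14 over AAA_7, for each gene in all phagocytes and within macrophage clusters 4, 5 and 9. Vegfa was -2.95 over all phagocytes and 0.32 within cluster 4.

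Neutrophils gave 0 members higher and 9 of 30 lower in AAA_14 than in AAA_7, against 17.0% and 12.5% of all genes, with medians of -0.57 and 0.10. Within neutrophil cluster 2, which both libraries filled, the members' median was -0.06, beside 0.17 for all genes, with 2 members at least 2-fold higher and 2 lower. In lymphocytes, T cells had 0 members higher and 4 lower, against 4.97% and 5.39% of all genes, NK cells 0 and 2, against 7.32% and 4.13%, and B cells 2 and 6, against 11.7% and 7.53%. Pkm, for example, stood at 284 and 306 CPM in AAA_7 and AAA_14 T cells and Hif1a at 244 and 173 CPM.

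Between single cells the genes were sparse. With each cell thinned to 1000 UMIs, the median cell held 0, 1 and 1 UMIs of the 14 hypoxia genes among Sham, AAA_7 and AAA_14 neutrophils, and 3, 3 and 4 UMIs of the 17 glycolytic genes. Vegfa was detected in 16.2, 8.99 and 11.1% of these neutrophils and in 13.9 and 2.06% of AAA_7 and AAA_14 phagocytes, against 1.44, 0.926 and 0.405% of B cells. The neutrophil and phagocyte shares were above the B cell shares in every library they could be set against. NK cells held more Vegfa than B cells, at 60.0 CPM in AAA_14, above the 26.9 CPM of phagocytes there. In AAA_7 they lay below phagocytes, at 55.6 against 209 CPM.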

How the data were processed

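The authors deposited unnormalized UMI counts per gene and barcode for 3 libraries of CD45+ cells from mouse aorta. The headers of these files name Cell Ranger 6.1.2. Seurat and the mm10 build are named in the submitters' processing notes. Barcodes with fewer than 200 genes or more than 10% mitochondrial UMIs were removed. Scrublet's automatic threshold marked 2, 0 and 0 cells and was treated as failed, so the top scores were removed at 0.8% per 1000 cells (12, 83 and 224 cells). Cells were clustered with scanpy 1.11.5 (2000 variable genes without the 31 members, 30 components, 15 neighbours) and leidenalg 0.10.2 (resolution 1), giving 37 clusters. Clusters were named from fixed markers (at least 3 detected), and ambiguous clusters (ratio over 0.8) were divided once more. These naming details were set after the clusters were seen, without the members. By their own markers alone, 89.4% to 98.6% of cells fell in the class of their cluster.

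Sums of counts over the cells of a class in each library were tested with edgeR 4.0.16 (quasi-likelihood, R 4.3.3), with adjusted p under 0.05 over 11648 genes. Sham phagocytes (11 cells) were left out. Ratios between libraries were taken on CPM after adding 0.5 counts, as log2, for genes with at least 10 UMIs, with exact conditional binomial 95% intervals, and class shares have exact Clopper-Pearson intervals. Intervals and limits cover counting error only. Genes named with values were members at least 2-fold apart, up to 15 per comparison, the member of each role nearest to even, and up to 4 genes per other list. The members and lists were chosen with earlier results of these data known. Alternatives covered scaling, filters, added counts, the mitochondrial limit, thinning, DESeq2 1.42.0, the largest cluster and leaving out each library. The procedures were run on simulated counts in which a chosen set of genes was changed and the rest were even between classes or libraries. Simulated counts for the library ratios held counting error only. The choice between TMM and totals was therefore not tested there. Promoter sequences are those of RefSeq on GRCm38.p6, and gene positions are those of GENCODE vM21.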

Additional observations from a re-analysis of the deposited data

Results flagged for a closer look

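In both cases that follow, the same library contrast went opposite ways in 2 cell classes, by at least 2-fold in each, and the difference between the classes was not tested because each group is 1 library. Vegfa in the library titled AAA_7 against Sham had a log2 ratio of 1.03 in T cells and -1.39 in NK cells. It stood at 7.14 and 14.7 CPM in Sham and AAA_7 T cells, and at 146 and 55.6 CPM in NK cells. The NK values rest on 51 and 30 UMIs. The T cell values are lower in CPM, and the T cell ratio of 1.03 lies close to the 2-fold limit. The 13 macrophage markers summed to 16.9 and 518 CPM in Sham and AAA_7 T cells and to 11.5 and 445 CPM in NK cells. AAA_7 phagocytes held Vegfa at 209 CPM, and the part of free phagocyte RNA in these values was not tested. Mif in AAA_14 against AAA_7 had a log2 ratio of 1.07 in B cells and -1.13 in neutrophils. It stood at 209 and 439.6 CPM in AAA_7 and AAA_14 B cells and at 202 and 92.7 CPM in neutrophils, where different clusters hold the class in the 2 libraries. Within neutrophil cluster 2 the Mif ratio was 0.35.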

How the results depend on the processing

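Of 209 alternative values of the main results, 200 stayed within 1.5 times the number of calls or within the order-statistic interval of the median over members, 7 moved and 2 lost calls. Both limits are wide, and the interval takes the members as independent, which was not tested. For NK cells in AAA_14 against Sham it ran from -0.02 to 0.81. These counts are therefore no measure of robustness. The number of calls adds both directions, and their split moved with totals: from 21 higher and 2 lower to 14 and 7 for neutrophils against lymphocytes, and from 1 and 15 to 5 and 9 for phagocytes against neutrophils. For single genes, the class tests gave 740 values that kept direction and call, 122 that lost the call and 2 that reversed. The library ratios gave 1250 values within their counting interval, 120 outside it and 8 that reversed. The 2 reversed class ratios came with totals that left out members and mitochondrial genes, Hif1a at -0.028 and Hk1 at -0.036 in neutrophils against lymphocytes. Leaving out each library gave 17 to 22 calls for neutrophils against lymphocytes, 8 to 14 for phagocytes against lymphocytes (8 without AAA_14, in place of 15) and 3 to 17 for phagocytes against neutrophils (3 without AAA_14, in place of 16), where phagocytes of a single library were left. For AAA_14 against Sham, the neutrophil median was 0.24 with cells thinned and 0.19 with 5 counts added, and the NK median -0.034 with TMM factors. Egln3 in neutrophils was -0.13 with 5 counts added and -0.10 within the largest cluster. Pfkl in T cells was -0.53 and Bnip3 in B cells 0.36 with cells thinned, and Tpi1 in B cells -0.21 within the largest cluster. For AAA_7 against Sham, the T cell median was 0.37 within the largest cluster and the B cell median 1.06 with a mitochondrial limit of 20%. For AAA_14 against AAA_7, the T cell median was 0.17 with a limit of 5% and the B cell median -0.53 with 5 counts added. Within the largest cluster Egln3 and Mif in neutrophils were 0.63 and 0.35, and Vegfa in phagocytes was 0.32. The cause was not tested. The 5% limit left too few cells for T, B and NK cells against Sham and for NK cells of AAA_14 against AAA_7, and no neutrophil cluster had enough cells in both AAA_7 and Sham, so these were not run. No paired analysis was possible because each group is 1 library, other than the class tests, which keep the library as a block. Depth limits genes with few UMIs, such as Egln3, Pfkl and Adm in Sham neutrophils.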
